A study of Mus musculus with 82 samples.

Results

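Cyp26a1, Aldh1a2, Rara, Rarb, Rarg, Crabp2 and Dhrs3 are 7 genes of the retinoic acid pathway, and their chromatin was followed in mouse stembryos at up to 9 stages between 48 h and 168 h. They were taken by name out of 21853 protein-coding genes. Regions were collected in the gene body extended by 10 kb on each side (the window) and within 1 kb of any of the 20 annotated transcription starts (the promoter). Stembryos, also called gastruloids, are aggregates of mouse embryonic stem (mES) cells that receive the Wnt agonist Chiron between 48 h and 72 h and then elongate. H3K27ac, H3K27me3, CDX2 and elongating polymerase (pSer2PolII) were assayed by ChIP-seq, and CTCF, RAD21, NIPBL and total PolII by ChIPmentation, in which a transposase adds the adapters to the captured chromatin.

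Retinoic acid is a diffusible derivative of vitamin A made in the elongating embryo by the somites and the mesoderm beside them. Aldh1a2 encodes the dehydrogenase that oxidises retinaldehyde to retinoic acid, Dhrs3 encodes a reductase that returns retinaldehyde to retinol, and Cyp26a1 encodes the cytochrome that degrades retinoic acid in the tail bud. Crabp2 encodes a binding protein that carries retinoic acid to the nucleus. Rara, Rarb and Rarg encode the receptors, which bind DNA with RXR partners at direct repeats of a short hexamer, and Rarb and Cyp26a1 are textbook targets of their own ligand.

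The mutant stembryos came from mES cell lines with CTCF binding sites (CBS) of the HoxD cluster deleted or, in Ins(2xCBS-d4d8), added. The cluster is on chromosome 2, where no member lies. H3K27ac libraries came in duplicate from Del(CBS1), Del(CBS1-2) and wt stembryos at 96 h and 120 h, H3K27me3 in duplicate from Del(CBS1-5) and wt at 96 h, and RAD21 from Del(CBS1) (2 libraries) and wt (3 libraries) at 96 h. RAD21 from Del(CBS1-5) at 120 h and CTCF from 6 mutant lines (Del(CBS1), Del(CBS1-2), Del(CBS1-5) and Del(CBS2) at 96 h, Del(CBS4) at 120 h and Ins(2xCBS-d4d8) at 144 h) were single libraries and were compared with nothing here. The deletions were homozygous, each in a line edited from the wt mES cells, with Del(CBS1-2) made on Del(CBS1) cells, except that Del(CBS1-5) cells were derived from mouse blastocysts. Every library was a pool of stembryos, so p-values from replicate libraries measure the spread between pools. Up to 96 h the study collected stembryos without selection. From 108 h on it kept only those that clearly elongated and showed no apoptosis. Between these 2 sets of stages, the stage and this selection cannot be told apart. Exact permutation tests over stages rest on the order of the stages and do not measure that spread. In such bulk material fewer cells of a type and less signal per cell cannot be told apart. The Del(CBS1-2) H3K27ac libraries carry a different label field ("cell line") from the wt libraries ("cell type"), so that the genotype and this difference of label cannot be told apart. Both Del(CBS1) RAD21 libraries and wt 96 h replicate 3 carry the field "cell line", and wt 96 h replicates 1 and 2 the field "cell type".

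Of 80 region lists, 61 were wt: 13 for H3K27ac, 8 each for PolII and NIPBL, 5 for pSer2PolII, 16 for RAD21, 2 for CTCF, 6 for H3K27me3 and 3 for CDX2. The lists held between 147 regions (CDX2 at 72 h) and 71196 regions. This length is not the sequencing depth. The study lists similar numbers of read pairs for CDX2 at 72 h and at 96 h, where the list held 4501 regions. The H3K27ac promoters of 6 pluripotency markers were all called at 48 h and 1 or 2 from 108 h on, those of 6 streak and tail bud markers were all called between 84 h and 108 h with the highest summed height at 96 h (190), and those of 4 somite markers were all called between 108 h and 144 h. Of 5 markers of cells not awaited in a stembryo, at most 1 was called in any list.

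Before the values, the 300 bases around the starts of Rarb and Cyp26a1 are shown, because of the RefSeq promoters searched these alone held a repeat that RAR and RXR are known to bind. RefSeq (GRCm38.p6, the patch of the mm10 build) gave 12 such promoters for 6 members, and none for Crabp2. They were searched on both strands for 2 copies of any of 4 hexamers (AGGTCA or GGGTCA, and with a T at position 3 AGTTCA or GGTTCA) in the same direction, 5 bases apart (DR5) or 2 bases apart (DR2). Capitals mark the DR5.
Rarb, chr14:16575427-16575726, minus strand: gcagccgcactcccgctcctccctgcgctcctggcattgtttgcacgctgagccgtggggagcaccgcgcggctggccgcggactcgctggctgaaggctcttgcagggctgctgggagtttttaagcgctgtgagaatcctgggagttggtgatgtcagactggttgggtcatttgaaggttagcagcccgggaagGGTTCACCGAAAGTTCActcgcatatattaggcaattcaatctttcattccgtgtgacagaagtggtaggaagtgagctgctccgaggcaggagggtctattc
Cyp26a1, chr19:37697558-37697857, plus strand: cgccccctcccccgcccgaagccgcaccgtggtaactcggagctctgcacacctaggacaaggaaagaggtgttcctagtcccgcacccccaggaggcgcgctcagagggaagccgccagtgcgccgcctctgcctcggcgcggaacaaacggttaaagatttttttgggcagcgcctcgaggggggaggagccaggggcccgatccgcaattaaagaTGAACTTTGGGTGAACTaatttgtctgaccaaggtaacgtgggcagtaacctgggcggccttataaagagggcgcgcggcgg
The Rarb repeat began at position −53 from the RefSeq start and read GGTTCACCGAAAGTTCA on the strand of the gene. The Cyp26a1 repeat began at position −32 and lay on the other strand, where it read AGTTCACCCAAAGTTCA. A DR5 was found in 32 of 32851 RefSeq promoters of this length (0.0974%) and a DR2 in 88 (0.268%), none of them of a member. Both DR5 lay inside the H3K27ac and the PolII region of their promoter. The 7 windows held 8 DR5 in all, 3 of them in an H3K27ac region, and 9 DR2, 1 of them in such a region. The others in an H3K27ac region were a DR5 (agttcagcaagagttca, chr11:98960008-98960024) upstream of an internal Rara start and a DR2 (agttcaccaggtca, chr3:87947525-87947538) upstream of the Crabp2 start. A DR5 within 1 kb of an internal Rarg start (ggttcaaagtgaggtca, chr15:102250817-102250833) lay in none, and neither did the DR5 farther from the starts, 1 at Cyp26a1, 2 at Rarb and 1 at Dhrs3.

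H3K27ac, a mark of active promoters and enhancers, was called at the promoter in all 13 wt lists at Rara, Rarg and Crabp2, in 12 at Rarb and Dhrs3, in 11 at Cyp26a1 and in 9 at Aldh1a2. PolII was called in all 8 lists at 5 of the 7 promoters, in 5 at Dhrs3 and in 4 at Aldh1a2. H3K27me3, the Polycomb mark of silent or poised genes, was called in all 6 wt lists at Cyp26a1, Aldh1a2 and Dhrs3, in 5 at Rara and Rarg, in 3 at Crabp2 and in none at Rarb. NIPBL, the loader of cohesin, was called in 7 of 8 lists at Rara and Rarb, in 6 at Crabp2 and Dhrs3, in 4 at Rarg and in 3 at Cyp26a1 and Aldh1a2. For comparison, a single wt list called between 49.4% and 63.4% of all 21853 promoters for H3K27ac, between 47.8% and 56.4% for PolII, between 15.2% and 22.2% for H3K27me3 and between 13.1% and 53.6% for NIPBL.

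**Figure D1:**
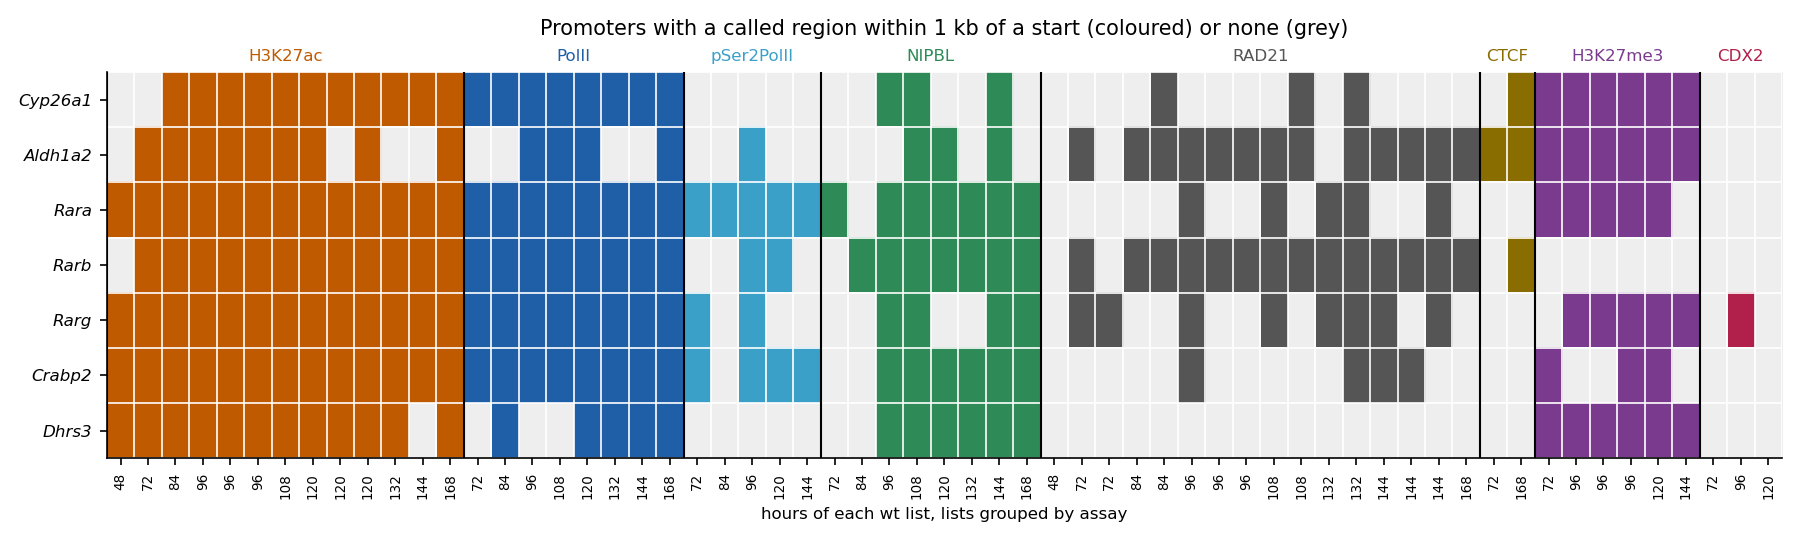
Promoter calls of the 7 members in 61 wt lists. Rows are genes, columns are lists grouped by assay and ordered by hour, and a coloured cell is a region within 1 kb of an annotated start; H3K27ac fills all 13 columns at Rara, Rarg and Crabp2, and the Rarb row is empty for H3K27me3.

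Cyp26a1 and Rarb were gained after the first stage. No H3K27ac region was called at either promoter at 48 h, and both were called in all 3 wt lists at 120 h, a pattern found at 263 of 21853 genes (1.2%). The opposite pattern, a call at 48 h and none at 120 h, was found at 1901 genes (8.7%) and at no member. The 48 h state rests on 1 list. Set against the 72 h list, an alternative chosen after seeing the data, Cyp26a1 alone had this pattern, with 113 genes in all (0.517%). A window of 2.5 kb added Aldh1a2, and a stricter threshold on the regions (a −log10 q of at least 5) gave Rarb, Crabp2 and Dhrs3 in place of Cyp26a1.

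The height of a promoter is the fragment pileup at its tallest summit divided by the background level of the library, so that it has no unit, and 0 means that no summit was called. Heights over stages are not centred between lists. The median over all promoters with a summit was 13, 22.5, 21.1, 20.4, 17.6, 16.8, 14.8, 12.5 and 23.2 for H3K27ac from 48 h to 168 h. For PolII it was 34.5, 20.5, 29.4, 18.6, 35.6, 17.1, 26.9 and 23.3 from 72 h to 168 h. At Cyp26a1 (chr19:37697798-37701536), H3K27ac height was 0, 0, 9.48, 10.9, 12.2, 7.01, 6.13, 5.55 and 7.93 at 48, 72, 84, 96, 108, 120, 132, 144 and 168 h. It was absent before 84 h and highest at 108 h. PolII height there was 5.74, 15.4, 31.2, 18.1, 10.1, 5.09, 6.06 and 6.14 at the 8 stages from 72 h to 168 h. PolII was thus present at 72 h, before H3K27ac was called, and highest at 96 h. NIPBL was called at this promoter at 96, 108 and 144 h only. Neither H3K27ac (rho = 0.23, exact p = 0.557, adjusted p = 0.943) nor PolII (rho = −0.29, exact p = 0.501, adjusted p = 0.92) followed the hour.

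At Aldh1a2 (chr9:71215789-71296243), H3K27ac height was 0, 6.76, 9.13, 8.79, 12.7, 7.62, 0, 0 and 7.05 at the same 9 stages. The promoter was called between 72 h and 120 h and again at 168 h. Its 3 libraries at 120 h did not agree, with 7.62 in the time course and 0 and 5.04 in the numbered replicates. PolII was called at 96, 108, 120 and 168 h, with heights of 10.7, 6.04, 7.38 and 3.56. The pSer2PolII list at 96 h was the only one with a promoter call at Aldh1a2 (15) and covered 4679 bp of its window. An intronic H3K27ac region 60621 bp downstream of the start (chr9:71275483-71276735) was called at 108 h and in all 3 lists at 120 h, with heights of 7.85, 6.7, 6.22 and 6.39, and in no other wt list.

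Dhrs3 (chr4:144892827-144928209) had H3K27ac heights of 5.58, 7.73, 9.83, 12.4, 10.6, 11, 8.43, 0 and 8.52, highest at 96 h and not called at 144 h. Its numbered replicates read 15 and 11.9 at 96 h and 9.17 and 14.1 at 120 h. PolII was called at 84, 120, 132, 144 and 168 h, with heights between 5.17 and 12.1. No pSer2PolII, RAD21 or CTCF region was called at this promoter in any wt list. At Crabp2 (chr3:87948666-87953376), H3K27ac height was 7.91, 13.5, 17.5, 25.6, 24.4, 19.8, 15.1, 14.4 and 29.7, and PolII height was between 19.4 and 56.9. Crabp2 was lowest for both marks at the first stage of each time course, and highest at 168 h for H3K27ac and at 144 h for PolII. The H3K27ac median over all promoters was also highest at 168 h (23.2), and it was 13 at 48 h. It was flanked by H3K27ac regions upstream (chr3:87945830-87948051, in 12 of 13 lists) and downstream (chr3:87958206-87961002, in 13 of 13), which reached 43.2 and 43.8 at 168 h. The downstream region overlapped the tallest CTCF region of all 7 windows (height 88.1 at 168 h).

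Among the receptors, Rara (chr11:98927818-98974942) was called at every stage, with H3K27ac heights of 25.8, 33.8, 27.7, 27.1, 29, 21.6, 25, 20.5 and 36.7. The ratio of its highest to its lowest stage was smaller than that between its 3 libraries at 96 h, 27.1 in the time course and 13.4 and 12.8 in the numbered replicates. PolII height at Rara was between 7.87 and 23, highest at 72 h. An H3K27ac region upstream of the gene (chr11:98917655-98918201) was called at 108, 120 and 132 h only, with heights between 4.87 and 8.83.

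Rarg (chr15:102234938-102257517) had the tallest H3K27ac promoter of the 7 members from 48 h to 108 h. Its heights were 40.5, 44.8, 45.3, 60.5, 32.5, 21.6, 19.7, 13.9 and 19.4, highest at 96 h and lower at each of the later stages. The numbered replicates showed the same order, with 21.6 and 21.9 at 120 h and 46 and 36.3 at 96 h. PolII height was 47.3, 22.4, 49.1, 24.2, 25.5, 12.5, 14.5 and 9.7. Across stages the fall did not pass after adjustment for H3K27ac (rho = −0.82, exact p = 0.0108, adjusted p = 0.196) or PolII (rho = −0.76, exact p = 0.0368, adjusted p = 0.92). The tallest H3K27ac region (chr15:102242636-102244945) lay at an internal start of Rarg. The starts at the 5′ end of the gene had a lower region (chr15:102256971-102258968), which was called in all 13 lists and reached 16.5.

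Rarb (chr14:16430839-16819156) has 2 pairs of starts, and all promoter regions lay at the downstream pair (chr14, positions 16575543 and 16575827), where the DR5 was found. H3K27ac height there was 0, 8.05, 24.2, 18.9, 26, 25.3, 15.3, 15 and 40.2. PolII height was 18.6, 27.5, 37.5, 28.7, 63.1, 39.8, 55.2 and 37.8, and PolII was called in every list. NIPBL height was 0, 4.52, 7.86, 6.35, 10.5, 13.5, 22.1 and 13.6. All 3 were lowest at the first stage of their time course. For NIPBL the rank correlation with the hour was the strongest that the members gave at a promoter (rho = 0.95, exact p = 0.00114, r = 0.84, exact p = 0.00885), but its adjusted p was 0.0934.

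**Figure D2:**
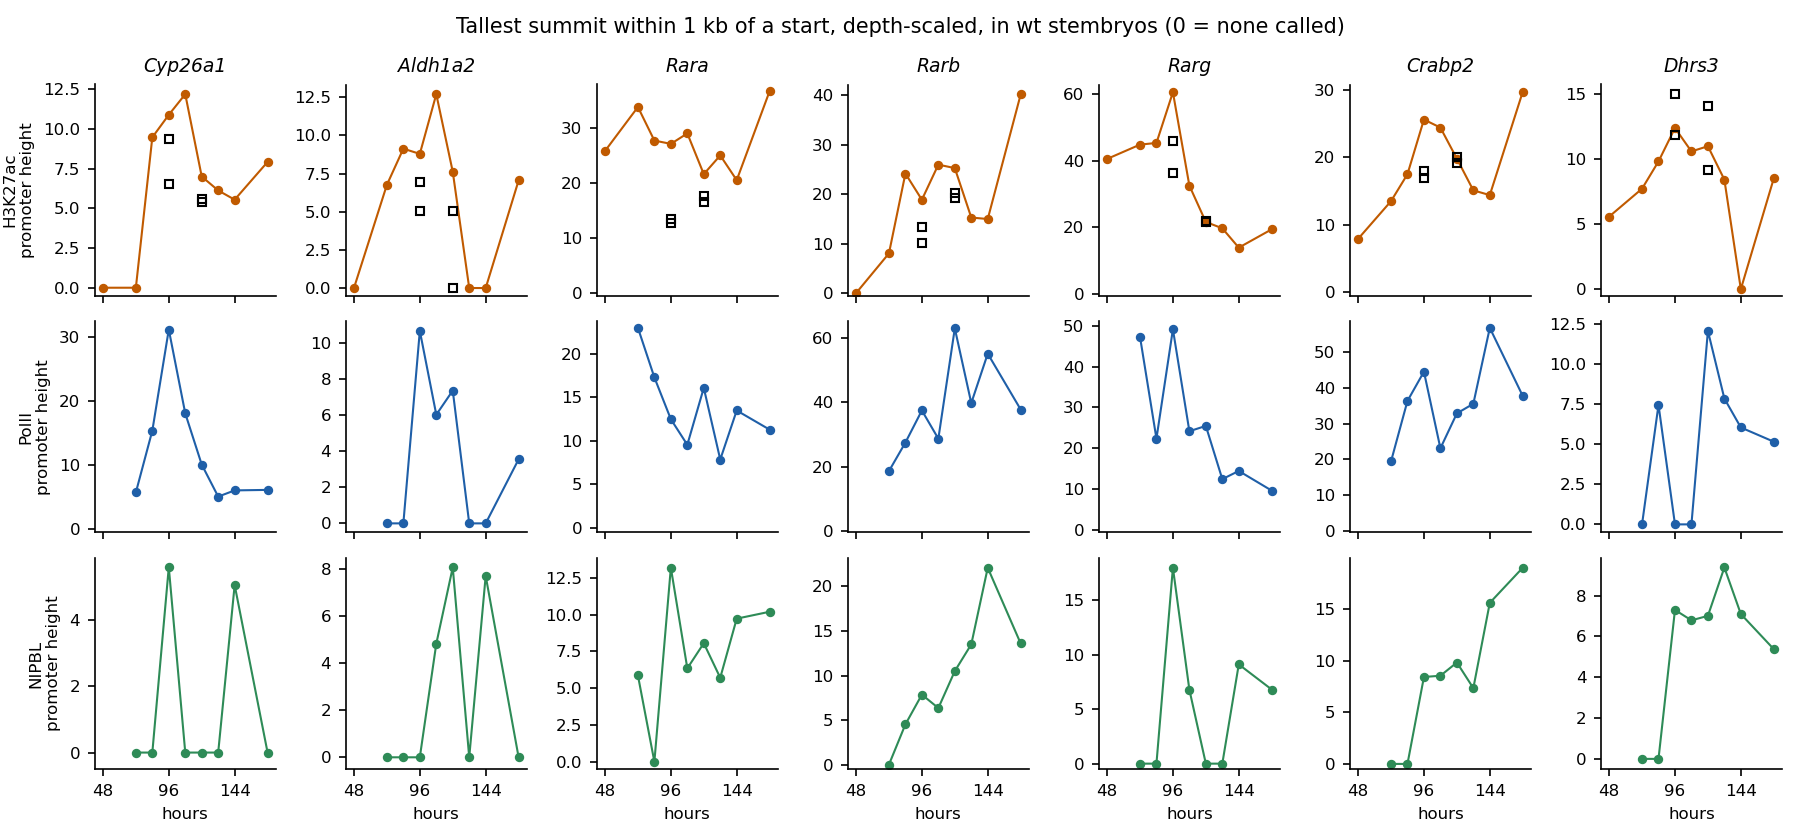
Promoter height (no unit) against hours of culture for H3K27ac, PolII and NIPBL (rows) at the 7 members (columns). Lines join the single time-course library of each stage and open squares are the numbered H3K27ac replicates at 96 h and 120 h; H3K27ac at Rarg is highest at 96 h (60.5), and H3K27ac at Cyp26a1 is 0 at 48 h and 72 h.

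No promoter height of any gene followed the hour at an adjusted p under 0.05 by the exact permutation test with Benjamini-Hochberg adjustment. The count was 0 (0%) of 13429 genes for H3K27ac, 0 of 11591 for PolII, 0 of 11004 for NIPBL and 0 of 11226 for RAD21. At an unadjusted p under 0.05 the counts were 1990, 521, 2198 and 2959 genes in that order of assays. Under several alternatives some genes did, with the counts given in the closing section. Without the first and last stage 29 genes rose and 6636 fell in H3K27ac height, Rarg and Rara among those that fell (rho = −0.86 and exact test adjusted p = 0.0467 each). With H3K27ac heights as percentiles of their list Rarg fell as well (rho = −0.92, exact test adjusted p = 0.0291).

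The length of the window covered by called regions gave calls for Rarb only. The windows also take in neighbouring genes, whose regions were not set apart. The start of Gjd3 lies in the Rara window and that of Itgb7 in the Rarg window. Cyp26c1, Cdc6, Top2b and Isg20l2 reach into the windows of Cyp26a1, Rara, Rarb and Crabp2 in turn. H3K27ac covered 217, 874, 2279, 2744, 3113, 3288, 4195, 3274 and 3935 bp of the Rarb window at the 9 stages. The covered length was at most 874 bp at 48 h and 72 h and at least 2279 bp at every later stage. It rose with the hour (rho = 0.92, exact p = 0.00131, adjusted p = 0.0387, r = 0.90, exact p = 0.000391), and rho was 0.89 (exact p = 0.0123) and r 0.86 (exact p = 0.00873) without the first and last stage. Only 27 of 16570 genes (0.163%) rose by this test, and 1041 (6.28%) fell, while the median rho over all genes was −0.48. The number of regions in the list was 67663 at 48 h and 36784 at 168 h. The adjusted p was 0.0704 with the stricter threshold on regions, 0.0914 with all lists at the same number of regions and 0.113 without the first and last stage.

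NIPBL covered 0, 363, 1666, 2139, 3192, 2410, 6175 and 6155 bp of the Rarb window at the 8 stages from 72 h. It rose with the hour (rho = 0.95, exact p = 0.00114, adjusted p = 0.0367, r = 0.94, exact p = 0.000347), and rho was 0.94 (exact p = 0.0167) and r 0.88 (exact p = 0.0111) without the first and last stage. Here 923 of 14782 genes (6.24%) rose and none fell, and the median rho over all genes was 0.71. The NIPBL lists themselves grew, with 6652 and 4888 regions at 72 h and 84 h and 40490 and 37907 at 144 h and 168 h, and the part of this growth in the result was not tested beyond 1 value: with all lists at the same number of regions the adjusted p was 0.0742. Without the first and last stage it was 0.284. The study lists more sequenced read pairs for NIPBL at 144 h and 168 h than at 72 h and 84 h, and their part was not tested. Over 4 assays 28 such relations were computed for the members, and p-values were adjusted over all genes tested in each assay. The other 26 did not pass.

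Rarg came closest among them, with H3K27ac over 4997, 5135, 3945, 5174, 3268, 2924, 2815, 1240 and 2624 bp (rho = −0.87, exact p = 0.00451, adjusted p = 0.0508, r = −0.83, exact p = 0.00618). It passed with Pearson's r in place of rho (adjusted p = 0.0459), and at equal list length rho was −0.20 (adjusted p = 0.811). Aldh1a2, Crabp2 and Dhrs3 had rho values of 0.85, 0.86 and 0.80 for NIPBL, each with an adjusted p of 0.069, against a median of 0.71 over all genes. Crabp2 passed with flanks of 5 kb (adjusted p = 0.037) or with Pearson's r (adjusted p = 0.0374), and Aldh1a2 with the stricter threshold on regions (adjusted p = 0.0496). No gene passed for PolII (0 of 13580, with 476 at an unadjusted p under 0.05) or RAD21 (0 of 17743, with 2054).

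**Figure D3:**
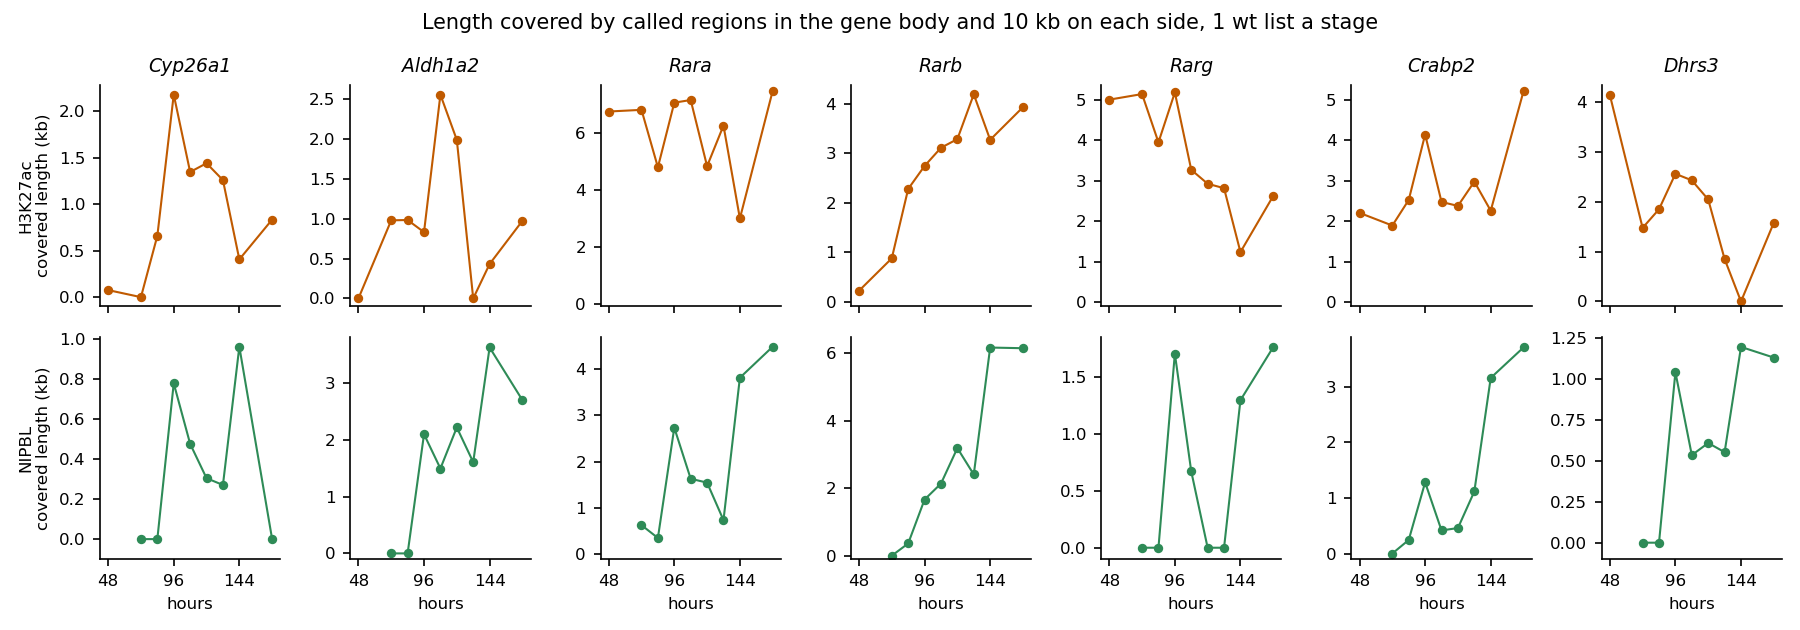
Kilobases of each member's window covered by called H3K27ac regions (9 stages) and NIPBL regions (8 stages) against hours of culture, 1 library a stage. The Rarb line climbs for both, with 217 bp of H3K27ac at 48 h and 3935 bp at 168 h, and 0 bp of NIPBL at 72 h and 6155 bp at 168 h.

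The numbered H3K27ac duplicates allow 120 h to be set against 96 h with replicates. The 120 h stembryos had been selected for elongation and those at 96 h had not, which cannot be told apart from the stage. The 9904 promoters called in all 12 libraries were tested with limma in 1 fit of 6 groups, on log2 heights centred on the median of each library. Rarb and Rara were higher and Rarg was lower at 120 h in wt. Rarb heights were 20.3 and 19.2 at 120 h and 10.2 and 13.4 at 96 h, a log2 difference of 0.97 after centring (SE 0.18, n = 2 each, limma adjusted p = 0.00031). Rarg differed by −0.70 (SE 0.13, adjusted p = 0.000487). Rara heights were 17.7 and 16.5 at 120 h and 13.4 and 12.8 at 96 h, a log2 difference of 0.60 (SE 0.16, adjusted p = 0.012). By this test 459 promoters (4.63%) were higher and 477 (4.82%) lower at 120 h. The wt duplicates did not overlap for any of the 3 genes. The share of the 9904 promoters with such a separation was not counted, so it adds nothing to the limma result.

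Crabp2 (0.38, SE 0.16, limma adjusted p = 0.128), Cyp26a1 (−0.30, SE 0.26, adjusted p = 0.523) and Dhrs3 (−0.01, SE 0.21, adjusted p = 0.978) did not pass. Aldh1a2 was not called in wt replicate 1 at 120 h and was not tested. The Rara call was lost without wt 96 h replicate 1 (adjusted p = 0.0717), wt 96 h replicate 2 (0.0528) or wt 120 h replicate 2 (0.0662), with starts widened to 2.5 kb (0.13, adjusted p = 0.639), with the time-course libraries added (0.45, adjusted p = 0.0799) and without centring (0.39, adjusted p = 0.159). Without centring the median of all promoters was −0.22 and 149 promoters were higher and 1385 lower, and Rarb (0.76, adjusted p = 0.0089) and Rarg (−0.91, adjusted p = 2.01e-05) kept their calls. Crabp2 passed with starts widened to 2.5 kb (0.53, adjusted p = 0.0241).

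**Figure D4:**
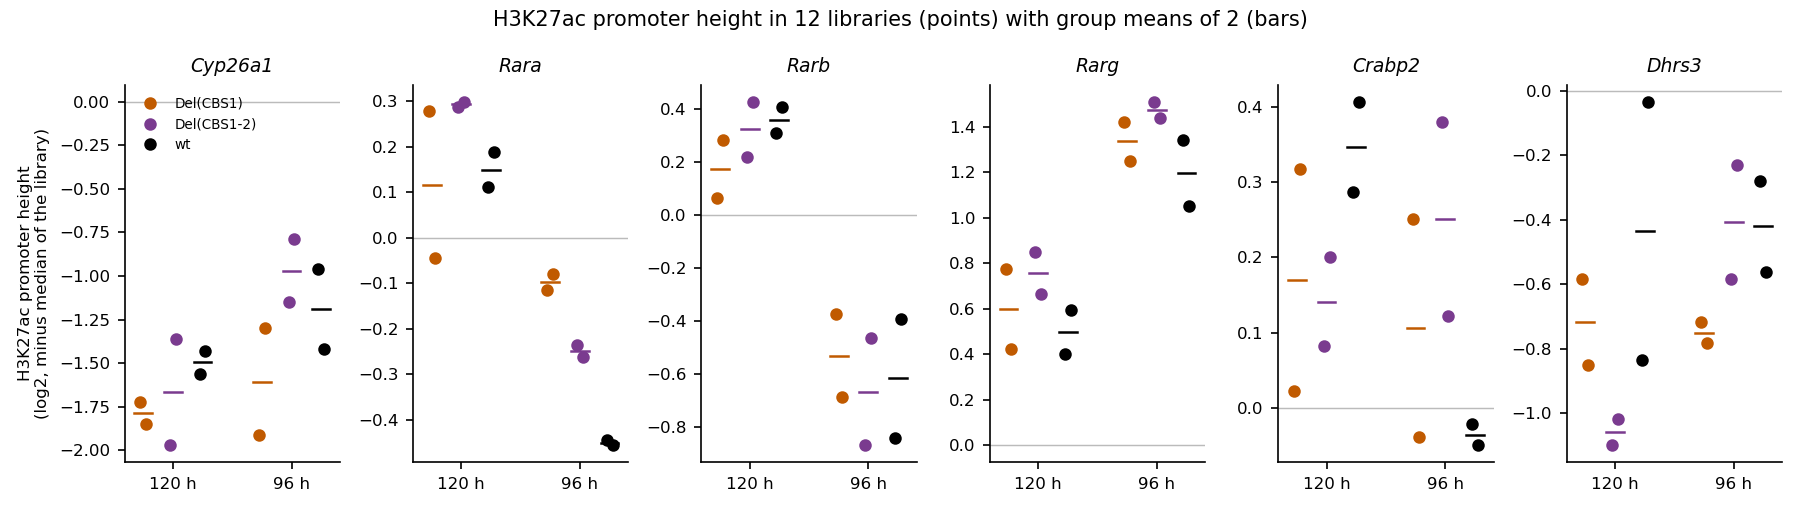
Log2 H3K27ac promoter height, centred on the library median, of 6 members in 12 libraries at 120 h and 96 h from Del(CBS1), Del(CBS1-2) and wt stembryos. Points are libraries and bars are means of 2; in all 3 genotypes the Rarb points at 120 h (0.0641 to 0.427) sit above those at 96 h (−0.867 to −0.373), and the Rarg points sit below (0.401 to 0.85 against 1.05 to 1.51).

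For the same 3 genes the mutant libraries are described beside the wt libraries. Across the 3 genotypes, Rarb read between 0.0641 and 0.427 at 120 h and between −0.867 and −0.373 at 96 h on the centred log2 scale, and Rara between −0.0451 and 0.299 at 120 h and between −0.456 and −0.0802 at 96 h. Rarg read between 0.401 and 0.85 at 120 h and between 1.05 and 1.51 at 96 h. For all 3 genes the 6 libraries at 120 h did not overlap the 6 at 96 h, with the narrowest gap at Rara, between 2 libraries of Del(CBS1). The genes had been picked by the wt test, and the wt libraries are among those compared here. The share of all promoters with such a separation was not counted, so the separation is not read as a result about these genes. The change between stages was also compared between genotypes. No member differed (smallest adjusted p = 0.563), and over all promoters limma called 1 for Del(CBS1) and 4 for Del(CBS1-2), with 737 and 827 at an unadjusted p under 0.05.

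Deleting CTCF sites of the HoxD cluster moved no member past the threshold in H3K27ac. In Del(CBS1) at 96 h, 17 of 9904 promoters passed (0.172%) and the 6 members tested lay between −0.42 (Cyp26a1) and 0.35 (Rara, limma adjusted p = 0.433) against wt. In Del(CBS1) at 120 h, 68 promoters passed (0.687%) and the members lay between −0.30 and 0.10, with a smallest unadjusted limma p of 0.193. In Del(CBS1-2) at 96 h, 383 promoters passed (3.87%) and the members lay between −0.05 and 0.29, with the smallest p at Rarg (limma adjusted p = 0.221). In Del(CBS1-2) at 120 h, 203 promoters passed (2.05%) and the members lay between −0.63 and 0.26. Standard errors were between 0.13 and 0.26. Higher and lower calls over all promoters numbered 14 and 3, 46 and 22, 156 and 227, and 133 and 70 in these comparisons in turn. Without centring they numbered 154 and 0, 901 and 10, 6027 and 16, and 3952 and 16.

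The largest of these differences was that of Dhrs3 in Del(CBS1-2) at 120 h. Its heights were 8.83 and 10.3 in Del(CBS1-2) and 9.17 and 14.1 in wt, a centred log2 difference of −0.63 (SE 0.21, limma adjusted p = 0.102). The uncentred heights of Del(CBS1-2) and wt overlapped, and the centred ones did not, a pattern that was not counted over all promoters. Without wt 120 h replicate 1 the difference was −1.05 and passed (adjusted p = 0.0117). Without centring all 6 members passed as higher in Del(CBS1-2) at 96 h, and the median of all promoters was then 0.51. Rara (0.52, adjusted p = 0.0283) and Rarg (0.63, adjusted p = 0.00123) also passed without centring in Del(CBS1-2) at 120 h, where the median of all promoters was 0.39.

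CDX2, a homeobox factor of the tail bud, was called at 6 places in the windows, 2 at Aldh1a2, 3 at Rarb and 1 at Rarg, and at none of Cyp26a1, Rara, Crabp2 and Dhrs3. None was called at 72 h, where the list held 147 regions. A CDX2 region lay in the window of 3 members at 96 h and 2 at 120 h, against 11.2% and 5.69% of all gene windows. The windows differ in length, from 23739 bp at Cyp26a1 to 408318 bp at Rarb, and the counts were not corrected for it. The Aldh1a2 region 1567 bp downstream of the start (chr9:71217103-71217496) had heights of 13 at 96 h and 9.72 at 120 h, and the other (chr9:71241594-71241797), in an intron, was called at 120 h only (8.5). The Rarb region upstream of the downstream pair of starts (chr14:16604711-16605080), inside an intron of the longer transcripts, had heights of 11.5 at 96 h and 6.07 at 120 h. The remaining Rarb regions (chr14:16733554-16733824, height 6.3, and chr14:16735418-16735672, height 5.56) and the Rarg region (chr15:102243908-102244102, height 10.4) were called at 96 h only. The Rarg region lay close to an internal start, within the span of the tallest H3K27ac region of the gene, and overlapped an H3K27ac region in 4 of 13 wt lists.

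Of the 6 summits, 3 are shown with 50 bases on each side, 2 that held a CDX word and 1 of the intronic Rarb cluster that held none. The words searched, on both strands, were CAATAAA or CCATAAA, and with a leading T the pair TAATAAA or TCATAAA, and capitals mark a match on either strand. All lines give the plus strand of mm10.
Aldh1a2 intron, chr9:71241635-71241735: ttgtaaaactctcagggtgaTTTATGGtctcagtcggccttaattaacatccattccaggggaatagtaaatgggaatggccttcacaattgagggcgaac
Rarb intron, chr14:16604812-16604912: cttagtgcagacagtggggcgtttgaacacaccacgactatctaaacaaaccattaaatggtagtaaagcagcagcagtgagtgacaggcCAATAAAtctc
Rarb intron, chr14:16733630-16733730: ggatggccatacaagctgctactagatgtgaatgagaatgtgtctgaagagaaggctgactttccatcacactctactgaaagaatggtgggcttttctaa
A word was found at 2 of the 6 summits of the members. It was found at 38.4% of 4654 summits at 96 h and 45.1% of 2351 at 120 h, and at 8.44% and 8.46% of places 1000 bases away from them.

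All 6 CDX2 regions overlapped a NIPBL region in at least 1 wt list, 5 overlapped a RAD21 region, and none overlapped a CTCF region in either wt list. These shares were close to those of all CDX2 regions. Of 4501 regions at 96 h, 89.7% overlapped NIPBL, 78% overlapped RAD21 and 10.6% overlapped CTCF, and of 2272 at 120 h the shares were 91.3%, 78.6% and 9.51%. The distance between the CDX2 and NIPBL summits was between 2 and 219 bp.

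The NIPBL regions at these places were singled out after their values were seen, and are described without a test. At the intronic Rarb region (chr14:16733060-16734236) NIPBL height was 0, 0, 0, 4.16, 8.41, 15.9, 34.5 and 35.7 from 72 h to 168 h. It was called from 108 h on and tallest at 168 h, which makes it taller than the Rarb promoter (13.6) in that library. H3K27ac flanked it in the same intron (chr14:16732648-16733687, in 9 of 13 lists, and chr14:16733847-16735268, in 10 of 13), was absent before 96 h and reached 17.4 at 120 h in replicate 1 and 18.5 at 168 h. At the Rarb region nearer to the called starts (chr14:16604543-16605707) NIPBL height was 0, 0, 4.21, 8.54, 22.4, 20.8, 23.3 and 13.8, and no H3K27ac region overlapped the CDX2 region there.

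At Aldh1a2 NIPBL height was 0, 0, 7.02, 3.72, 7.36, 13.5, 36.7 and 32.1 at the intronic region (chr9:71241232-71242424) and 0, 0, 7.86, 9.64, 13.3, 12.6, 29.2 and 25.8 downstream of the start (chr9:71216238-71218071). Both were called from 96 h on and were tallest at 144 h, when no H3K27ac region was called at the Aldh1a2 promoter. The NIPBL lists at 144 h and 168 h were also the longest, with 40490 and 37907 regions.

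At the Cyp26a1 promoter H3K27me3 height was 39.6 at 72 h, 33.3, 30.3 and 29.1 at 96 h, 31.6 at 120 h and 23 at 144 h, with all libraries above 20. H3K27ac and PolII were called at the same promoter from 84 h on, in lists that cannot say whether the same cells carried them. At Aldh1a2 H3K27me3 height was 29.8 at 72 h, 20.6, 16.2 and 11.4 at 96 h, 30.2 at 120 h and 36.6 at 144 h, lower in all 3 libraries at 96 h than at the other stages. At Rarg no summit was called at 72 h, and the heights were 11.1, 12.9 and 11.4 at 96 h, then 23.6 at 120 h and 21.1 at 144 h. It lay at the starts at the 5′ end (chr15:102256322-102258186) and not at the internal starts with the tallest H3K27ac. At Dhrs3 it was between 7.45 and 16.1. At the Rara promoter the heights were 15.5 at 72 h, 21.7 in the time course at 96 h and 13.7 at 120 h, while in both 96 h replicates a region reached the promoter with its summit outside. A region downstream of Rara (chr11:98982381-98983932) was called in all 6 wt lists and reached 32.6 at 120 h. It holds the start of the neighbouring gene Gjd3, 22604 bp from the nearest Rara start, and is not a Rara promoter. Rarb had no promoter call in wt.

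In Del(CBS1-5) at 96 h, H3K27me3 was compared with wt over 2564 promoters with a summit in all 4 libraries, of which 28 (1.09%) passed, 17 as higher and 11 as lower, or 12 and 18 without centring. Per the study's methods, the mice behind the Del(CBS1-5) cells had another strain background than the wt mES line. Genotype, strain and derivation of the cells therefore cannot be told apart here. Cyp26a1 heights were 28 and 24.7 in Del(CBS1-5) and 30.3 and 29.1 in wt, a centred log2 difference of −0.12 (SE 0.15). Aldh1a2 heights were 12.6 and 14.1 in Del(CBS1-5) and 16.2 and 11.4 in wt (0.04, SE 0.21). Rarg heights were 9.81 and 10.1 in Del(CBS1-5) and 12.9 and 11.4 in wt (−0.23, SE 0.20). No member passed (smallest limma adjusted p = 0.662). The other 4 did not have a summit within 1 kb of a start in every library and were not tested. Dhrs3 read 0 and 12.1 in Del(CBS1-5) and 12.5 and 12.7 in wt, and Rara read 0 and 11.7 in Del(CBS1-5) and 0 and 0 in wt, each with a region that reached the promoter in all 4 libraries. Crabp2 read 13.3 and 8.89 in Del(CBS1-5) and 0 and 6.36 in wt, and Rarb read 0 and 6.47 in Del(CBS1-5) and 0 and 0 in wt.

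Cohesin sites were read from RAD21, a subunit of the cohesin ring, and CTCF, which stops it. The windows held 63 merged RAD21 regions, of which 22 overlapped CTCF in both wt lists and 33 in neither. Here 3 CTCF summits are shown with 30 bases on each side, the promoter site of Aldh1a2 and the sites downstream of Cyp26a1 and Rara whose RAD21 height followed the hour. Capitals mark a core word of the CTCF motif (AGGGGGC or AGAGGGC, or with a T in the middle AGGTGGC or AGATGGC, both strands searched), and all lines give the plus strand of mm10.
Aldh1a2 promoter, chr9:71215292-71215352: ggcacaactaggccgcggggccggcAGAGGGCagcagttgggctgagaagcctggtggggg
Cyp26a1 downstream, chr19:37704099-37704159: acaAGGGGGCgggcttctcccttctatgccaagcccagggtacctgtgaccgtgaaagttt
Rara downstream, chr11:98975506-98975566: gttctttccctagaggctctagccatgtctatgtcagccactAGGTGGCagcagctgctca
A word was found at 8 of the 22 CTCF summits of the members that recurred in both wt lists, and at 37.1% and 32.3% of all summits at 72 h and 168 h, against 4.38% and 4.72% of places 1000 bases away.

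Aldh1a2 was the only member with a CTCF region at its promoter in both wt lists, with heights of 23.6 at 72 h and 35.5 at 168 h. RAD21 was called there in 13 of 16 wt lists, up to a height of 29.6 at 108 h. At the Rarb promoter RAD21 was called in 14 of 16 lists, between 3.11 at 72 h and 17.7 at 108 h. CTCF at the Rarb promoter was called at 168 h only, at a height of 4.78. A single wt list called between 13.1% and 50.5% of all promoters for RAD21, and 28.8% at 72 h and 28.2% at 168 h for CTCF. Neither RAD21 promoter height followed the hour after adjustment (Rarb: rho = 0.79, exact p = 0.0279, adjusted p = 0.142). Dhrs3 had no promoter RAD21 in any list, and its nearest site upstream (chr4:144890348-144891813) held one of the tallest CTCF regions (30 at 72 h and 79.2 at 168 h).

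Of 10 member sites called in all 16 wt RAD21 libraries, each with CTCF in both wt lists, 3 rose and 1 fell with the hour in a limma fit that also held the label field. Over 20157 sites 2836 (14.1%) rose and 3239 (16.1%) fell. The site 6201 bp downstream of the Cyp26a1 start (chr19:37703389-37704610) rose by 0.18 on the log2 scale per 24 h (SE 0.04, limma adjusted p = 0.00238). Within the libraries labelled by cell type the slope was 0.13 (SE 0.06, 9 libraries), and within those labelled by cell line it was 0.25 (SE 0.05, 7 libraries). The site 12449 bp downstream of the Crabp2 start (chr3:87960601-87961630) rose by 0.17 (SE 0.05, adjusted p = 0.0119), with 0.16 (SE 0.10) and 0.19 (SE 0.04) within the same 2 sets.

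The site upstream of Aldh1a2 (chr9:71210518-71211769) rose by 0.11 (SE 0.04, limma adjusted p = 0.0374), with 0.08 (SE 0.05) within the libraries labelled by cell type and 0.15 (SE 0.05) within the others. The call was lost without 48 h replicate 1 (slope 0.0764, adjusted p = 0.192) and without 72 h replicate 1, 84 h replicate 1, 132 h replicate 1 or 2, or 144 h replicate 2 or 3 (adjusted p = 0.0543 to 0.083). It was also lost without centring (adjusted p = 0.097) and with quantile normalization (0.0541). The site 15185 bp downstream of the nearest Rara start (chr11:98975201-98975993) fell by 0.14 (SE 0.05, adjusted p = 0.0309), with −0.19 (SE 0.05) and −0.09 (SE 0.09) within the same 2 sets. It did not change without centring (−0.00363, adjusted p = 0.983), where the median of all sites was 0.14 per 24 h and 2253 sites rose and 172 fell, and its call was lost without 72 h replicate 2, 84 h replicate 1, 132 h replicate 2, 144 h replicate 3 or 168 h replicate 1 (adjusted p = 0.0576 to 0.0969).

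**Figure D5:**
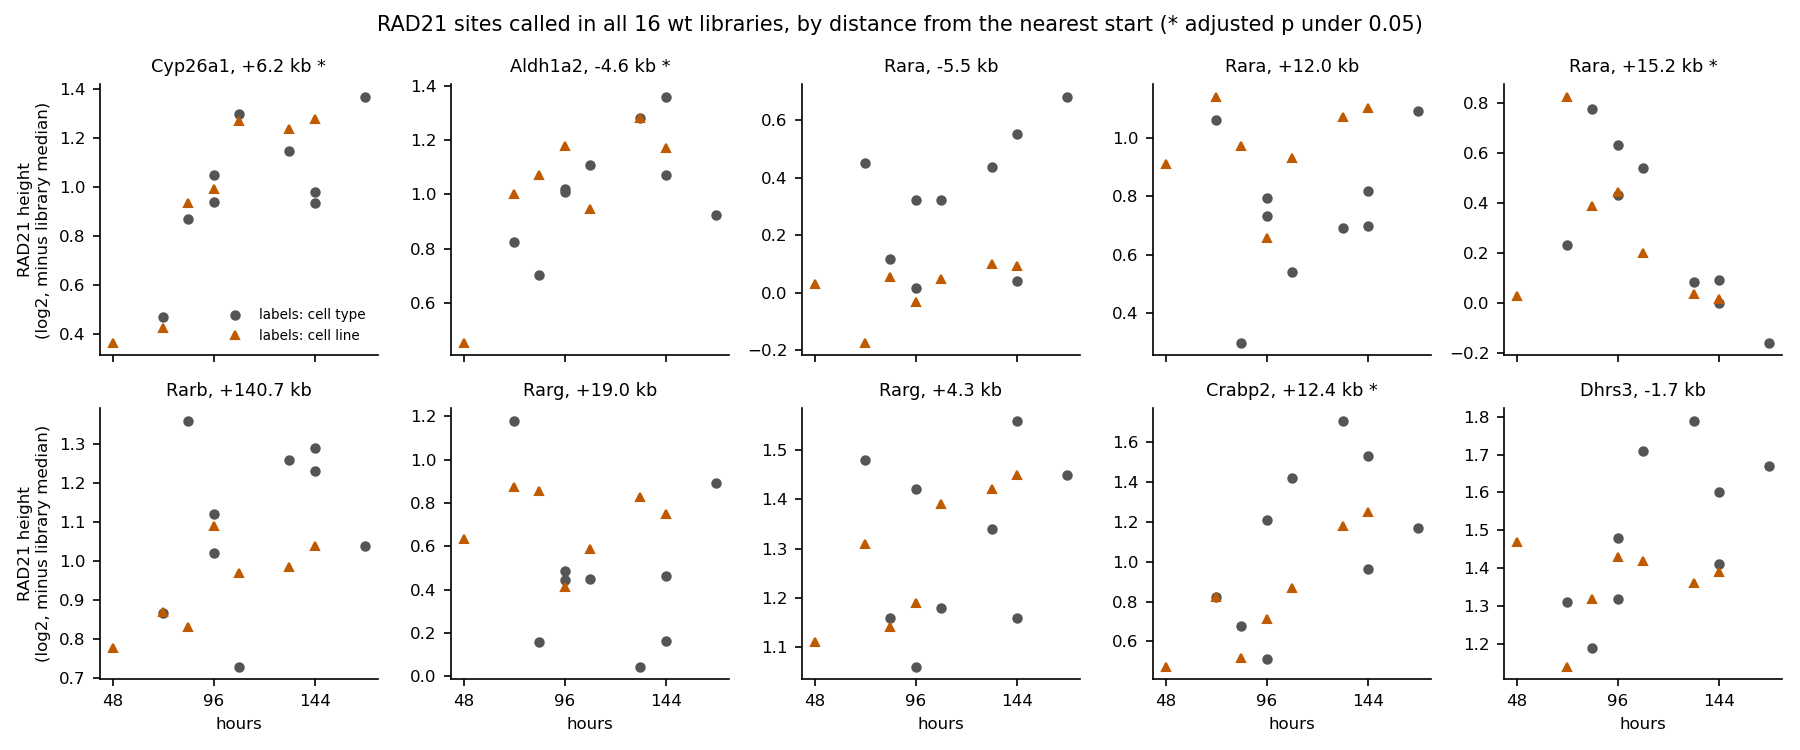
RAD21 height at the 10 member sites called in all 16 wt libraries, as log2 height minus the library median, against hours of culture. Circles are libraries labelled by cell type and triangles those labelled by cell line, and a star marks a slope with an adjusted p under 0.05; the site downstream of Cyp26a1 slopes up by 0.18 and the one downstream of Rara slopes down by 0.14 per 24 h.

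In Del(CBS1) at 96 h, limma called 0 (0%) of 33918 RAD21 sites against wt, with 708 at an unadjusted p under 0.05. With the label field as a term it called 0, with 454 at that p, and without wt replicate 1 it called 3 of 39977, with 4719 at that p. The 20 member sites tested differed from wt by −0.70 to 0.38 on the log2 scale, each with an adjusted p of 1. The lowest was at a site upstream of Rarg (chr15:102265333-102265952), with centred log2 heights of −1.84 and −1.86 in Del(CBS1) and −0.585, −1.46 and −1.39 in wt (SE of the difference 0.34). At the Rara site chr11:98971860-98972894 the values were 1.63 and 1.78 in Del(CBS1) and 1.42, 1.5 and 1.43 in wt, and at the one downstream of the gene (chr11:98975201-98975993) 1.49 and 1.35 in Del(CBS1) and 1.25, 1.21 and 1.22 in wt. At these 3 of the 20 sites Del(CBS1) and wt did not overlap. The share of such sites among all 33918 was not counted, so the separation is not read as a difference.

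For elongating polymerase, promoter calls are given first, although the paper describes this form as usually enriched in the 3′ part of genes. Rara was called at its promoter in all 5 pSer2PolII lists, with heights of 8.24, 7.87, 13.1, 7.68 and 3.19 at 72, 84, 96, 120 and 144 h. Crabp2 was called in 4, with 12.8, 0, 21.4, 11 and 5.27. Rarb was called at 96 h (17.4) and 120 h (13.4), Rarg at 72 h (7.78) and 96 h (9.29), and the Cyp26a1 and Dhrs3 promoters at no stage. Of all promoters, 41.9%, 7.92%, 44.3%, 32.3% and 12.4% were called in the 5 lists in turn. The 144 h list was made from 3 samples merged by the authors. All 5 members called at the promoter had their highest promoter value at 96 h, the list with the most regions (24177). Away from the promoters, a Rarg region was called in all 5 lists, with 21.7, 14.6, 17.2, 5.49 and 3.05, highest at 72 h. A Rarb region was also called in all 5, with 10.1, 8.99, 19.8, 17.8 and 4.57. Regions outside the promoter were called at Cyp26a1 at 72 h and 96 h and at Dhrs3 at 96 h and 120 h.

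Among 27 other genes of the pathway, none gained a promoter H3K27ac call between 48 h and 120 h by the rule above, against 2 of 7 members and 1.2% of all genes. By the opposite rule 3 lost a call: Aldh1a3, another dehydrogenase of retinaldehyde (height 3.02 at 48 h), Crabp1, the other cellular binding protein of retinoic acid (3.95), and Rxrg, a partner receptor (4.88). With the stricter threshold on regions none did, and with the 2.5 kb window or the 72 h list 4 did. Aldh1a3 was called again at 132 h and 168 h, Crabp1 at 144 h and 168 h and Rxrg at 132 h. Of the 25 that could be tested for the length covered by H3K27ac, 1 rose with the hour (Adh7, rho = 0.94, exact test adjusted p = 0.0319) and 2 fell (Rdh10, which makes retinaldehyde from retinol, rho = −0.93, adjusted p = 0.0319, and Rxrg, rho = −0.90, adjusted p = 0.0478). Their median rho was −0.23, against −0.48 over all genes. For NIPBL, Ncor1, which encodes a nuclear receptor co-repressor, was among those that rose (rho = 0.97, exact test adjusted p = 0.0367), and the median rho of the 25 tested was 0.78 against 0.71 over all genes. None passed for PolII (19 tested) or RAD21 (25 tested) by the exact permutation test.

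The genes whose promoters followed each member most closely were ranked by Pearson's r of log2 height over the 25 wt time-course lists of H3K27ac, PolII and NIPBL, among 13225 genes called in at least 5 of them. For Cyp26a1 these were Lsp1 (r = 0.85) and Rspo3 (r = 0.84), for Rarb Nuak1 (0.93) and Cdh2 (0.91), and for Rarg Hspb9 (0.97) and 5430403G16Rik (0.95). For Rara Tef (0.96), for Crabp2 Mex3b and Plxna2 (0.96 each), for Dhrs3 Pdk2 (0.79) and for Aldh1a2 Porcn (0.67) came highest. None of these genes lies within 1 Mb of the member it follows.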

How the data were processed

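Per the submitters' processing notes and the study's methods, reads were trimmed with cutadapt 1.16, mapped to mm10 with Bowtie2 2.3.4.1 and filtered with SAMtools 1.8, and the authors called peaks in each library with MACS2 2.1.1.20160309 without an input control. For CTCF in Ins(2xCBS-d4d8) stembryos the authors used a chromosome 2 that carries the insertion. The deposited lists hold, for each peak, the authors' fold enrichment (a ratio to the local background) and the −log10 of the p-value and of the q-value. They hold no read counts, so no counting interval can be given. The study lists the read pairs sequenced for most of these libraries, but these numbers did not enter the heights or the tests. With no input, open chromatin and copy number are not subtracted, and a region under the threshold is absent rather than low.

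From 82 samples, 80 lists were used, since 3 pSer2PolII samples at 144 h share 1 list. The fragment pileup of each summit was recovered from the fold enrichment and p (whole within 0.001 for at least 99.987% of peaks) and divided by the lowest background of its list. A promoter was called where a region came within 1 kb of a start of a protein-coding transcript in GENCODE vM21, and its height was that of the tallest summit there. Trends with the hour were tested by exact two-sided permutation of Spearman's rho, with RAD21 as stage means. Heights were compared with limma 3.58.1 (R 4.3.3, trended empirical Bayes), over regions called in every library of the fit. All p-values were adjusted by Benjamini-Hochberg over all genes or sites. Other steps used Python 3.11.15, NumPy 2.4.6, SciPy 1.17.1 and matplotlib 3.10.9, and both tests were tested on simulated data. No lists of 1 assay shared more than 0.68% of their regions exactly. Named genes were the 7 members, pathway genes whose H3K27ac promoter call differed between 48 h and all 3 wt lists at 120 h, the genes most like each member and, named after their values were seen, pathway genes that passed a test. Alternatives covered windows, thresholds, scaling, list length, replicates and a replicate block. The members and lists were chosen with earlier results of these data known. A result for 1 other pathway gene is not reported here.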

Additional observations from a re-analysis of the deposited data

How the results depend on the processing

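Counts of calls stayed within 1.5 times the main count under 78 alternatives and did not under 59, and for single members 195 values kept their direction and side of the threshold, 27 lost a call, 16 gained one, 11 turned direction and 1 moved. The causes were not tested. Genes whose H3K27ac covered length followed the hour numbered 1068, and 649 with 5 kb flanks, 50 with a −log10 q of at least 5, 25 at equal list length, 2461 with Pearson's r and 0 without the first and last stage. For NIPBL 923 became 0 at equal list length, 3375 with Pearson's r and 0 without the first and last stage. For promoter height, where no gene passed, H3K27ac gave 1426 with percentiles, 36 with Pearson's r and 6665 without the first and last stage, PolII gave 16 with percentiles, and RAD21 gave 31 within 2.5 kb, 156 with percentiles and 348 with Pearson's r. The count of gained promoters was 113 with the 72 h list.

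In the limma fits the counts were 17, 68, 383 and 203 for Del(CBS1) at 96 h and 120 h and Del(CBS1-2) at 96 h and 120 h, and 936 for 120 h against 96 h. Without centring they were 154, 911, 6043, 3968 and 1534. With only the 4 libraries of a comparison they were 53, 1, 686, 105 and 612, and with the time-course libraries added 0, 0, 0, 0 and 576. Quantile normalization gave 78 for Del(CBS1-2) at 120 h and 9 for H3K27me3, against 28. RAD21 against hour gave 2425 without centring. With 1 library left out, the ranges were 0 to 5, 10 to 93, 49 to 125, 3 to 214 and 473 to 714, and 0 to 62 for H3K27me3, 0 to 3 for RAD21 in Del(CBS1) and 4944 to 7340 for RAD21 against hour.

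Replicate numbers did not pair the libraries (correlations of same-numbered deviations between −0.0554 and 0.107 for H3K27ac and −0.0149 for H3K27me3). With a replicate block the 5 H3K27ac counts were 30, 75, 416, 225 and 951, with 95 for H3K27me3, 49 for RAD21 in Del(CBS1) and 5498 for RAD21 against hour, where the Aldh1a2 site lost its call (adjusted p = 0.142).

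Members that turned direction were Rara H3K27ac height against hour, with 0.694 at the most 5′ start, 0.0833 with percentiles and 0.0291 with Pearson's r, and in Del(CBS1-2) at 96 h Rarb (0.468 without centring, 0.0171 with quantile normalization, 0.175 without wt 96 h replicate 2 and 0.14 without Del(CBS1-2) 96 h replicate 1, in a range of −0.299 to 0.175 over the libraries left out), Rara (−0.232 within 2.5 kb), Dhrs3 (−0.127 without wt 96 h replicate 2 and −0.165 without Del(CBS1-2) 96 h replicate 2, in a range of −0.165 to 0.179) and Cyp26a1 (−0.0101 without wt 96 h replicate 2, in a range of −0.0101 to 0.43). Sequencing depth did not enter the results, so heights near the calling threshold, as at Dhrs3 and Aldh1a2, may be absent from shallow lists.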
